A study of Mus musculus with 1119 samples.

Results

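Among single cells sorted from the hair bulbs of mouse back skin at postnatal day 30 (P30), 38.3% met a rule built on the mRNA of Krtap8-1, a keratin-associated protein gene of the hair shaft. A cell was counted when at least 2000 genes reached a TPM of 1 (a share of the cell's RNA corrected for transcript length), Krtap8-1 reached 1 TPM and Lgr5, a stem and progenitor cell gene, stayed below 1 TPM. On the 5 plates of the hair bulb table, P1-3, P1-4, P1-5, P1-6 and P2-1, the rule found 25 of 76, 26 of 78, 31 of 75, 26 of 74 and 39 of 81 cells. They are 45.4% (exact binomial 95% interval 39.9 to 50.97) of the Lgr5-negative cells that reached 2000 genes. They were set against the rest of these, in which Krtap8-1 and Lgr5 were both below 1 TPM, with 34, 37, 30, 39 and 37 cells on the plates. These Krtap8-1-negative cells are a mixture, so the main results are also given against the 58.8% of them with trichohyalin (Tchh) at 1 TPM or more and against the 73 cells without it. A further 55 cells held Lgr5, of which 3 also held Krtap8-1, and 5 cells fell short of 2000 genes.

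The series holds 1119 cells of hair follicle epithelium and dermal papilla from P21 to P30, sequenced with Smart-seq2 (full-length cDNA of single cells, here without molecular identifiers). All hair bulb cells came from Lhx2-GFP mice on a CD1 background, a strain in which the green reporter is labelled as one of the sort markers, together with integrin α6, integrin b1, CD34, Sca-1 and Pcadherin. The labels give the age as P30, the sex as mixed and no treatment, and no animal is named; a group of cells therefore counts as 1 sample, and no test was made. The plates were read from the start of each cell's title. No label says whether they share animals or a sort, so the sources of their spread are unknown. The authors' deposited annotation puts every cell of the hair bulb in 1 type, the matrix or transit-amplifying cells of full anagen, and does not separate the cells described here.

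In the growing follicle, matrix cells around the dermal papilla divide and then leave the cycle into concentric layers: medulla, cortex and cuticle of the shaft inside, inner root sheath and companion layer outside. Shaft cells assemble hair keratins into filaments and embed them in keratin-associated proteins, whose cysteines are cross-linked. WNT signalling through Lef1, BMP signalling, and the transcription factors Hoxc13, Msx1, Msx2, Dlx3 and Foxn1 act early in this program, whereas Gata3 and Cux1 belong to the inner root sheath.

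Krtap8-1 lies on chromosome 16 (GRCm38, chr16:89487379-89487952, minus strand) in a cluster of related genes. Its promoter is shown with those of Krtap15, the other keratin-associated protein gene seen in most of these cells, and of Mt4, a metallothionein of keratinizing epithelium that is one of the markers of the group. Each sequence holds the 250 bases before the RefSeq start (GRCm38.p6), written 5′ to 3′ on the gene's own strand. All 10 genes looked up in the RefSeq table matched. Capitals mark the TATA motif (TATAAA) or, in Krtap15, the first LEF/TCF motif (CTTTGAA). The positions are chr16:89487953-89488202 (minus strand) for Krtap8-1, chr16:88828759-88829008 (plus strand) for Krtap15 and chr8:94136954-94137203 (plus strand) for Mt4.
Krtap8-1: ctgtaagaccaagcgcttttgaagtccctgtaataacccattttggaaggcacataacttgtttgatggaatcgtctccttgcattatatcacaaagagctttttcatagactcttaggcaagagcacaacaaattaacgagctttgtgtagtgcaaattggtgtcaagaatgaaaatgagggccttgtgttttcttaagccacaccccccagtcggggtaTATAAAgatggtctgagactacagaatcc
Krtap15: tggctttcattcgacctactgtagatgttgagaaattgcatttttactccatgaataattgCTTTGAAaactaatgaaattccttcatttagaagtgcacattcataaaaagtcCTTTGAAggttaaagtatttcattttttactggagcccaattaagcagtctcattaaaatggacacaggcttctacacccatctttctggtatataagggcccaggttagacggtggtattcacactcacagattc
Mt4: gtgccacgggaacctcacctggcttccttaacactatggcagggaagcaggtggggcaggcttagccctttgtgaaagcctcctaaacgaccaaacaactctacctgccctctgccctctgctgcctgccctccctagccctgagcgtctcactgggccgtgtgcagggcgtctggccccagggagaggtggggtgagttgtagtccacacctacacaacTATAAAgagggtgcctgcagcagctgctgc
The Krtap8-1 window holds the TATA motif from position -29 to -24, counted back from the base before the start, and Mt4 holds it from -30 to -25. The Krtap15 window holds no exact copy of it but the LEF/TCF motif at -189 to -183 and again at -136 to -130. Both strands were searched, also for the second LEF/TCF motif (CTTTGAT), which none of the 3 windows holds. Of 32851 RefSeq promoters of this length, 12.4% held the TATA motif, 4.46% the first and 3.21% the second LEF/TCF motif. The promoter of Kitl, a gene described below, holds the TATA motif from -25 to -20, whereas those of Prdm1, Gpnmb and Padi3 hold none of the motifs. S100a3 (4 starts), Tgm6 (2) and Stra6 (4) have several starts in the table: S100a3 has the TATA motif before 1 start and the second LEF/TCF motif before another, Tgm6 the first LEF/TCF motif before 1, and Stra6 the second before 1. A match is a description of the letters, and no factor's binding was measured in these cells.

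Krtap8-1 spanned a wide range among these cells. Its level ran from 1.19 TPM over a median of 51.5 to 1527 TPM, with quartiles of 15.5 and 156.3. The 5 lowest cells were at 1.19, 1.59, 1.88, 2.01 and 2.25 TPM, and every cell on the other side of the threshold was listed at 0. Of the Krtap8-1-positive cells, 83.7% reached 10 TPM and 35.4% (52 cells) reached 100 TPM. The medians on the 5 plates were 22.9, 39.3, 51.5, 79.4 and 41.3 TPM in the order P1-3, P1-4, P1-5, P1-6 and P2-1, and the ranges of all plates overlapped. The cells were spread over all plates as well: they made up 42.4% (25 of 59), 41.3% (26 of 63), 50.8% (31 of 61), 40% (26 of 65) and 51.3% (39 of 76) of the Lgr5-negative cells. Lgr5 was at 0 in 85.7% of them and at most at 0.74 TPM in the others. The 3 Lgr5-positive cells with Krtap8-1 held 1.73, 53.98 and 244.41 TPM of it.

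**Figure D1:**
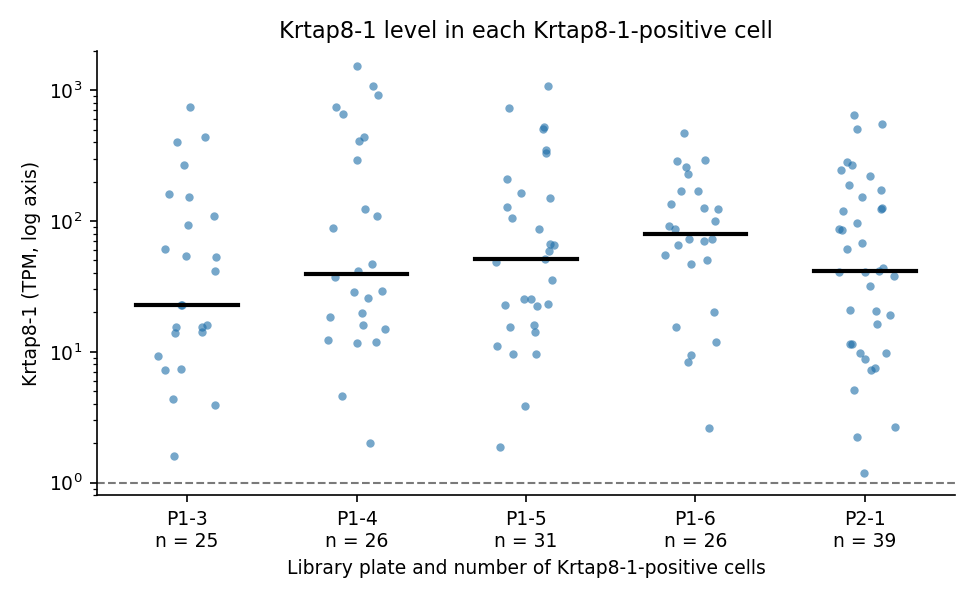
Krtap8-1 in TPM (logarithmic axis) in each Krtap8-1-positive cell, by plate; each point is 1 cell, the bar is the median of the plate and the dashed line is the threshold of 1 TPM. The highest cell of a plate lies between 472 and 1527 TPM, and the medians lie between 22.9 and 79.4 TPM.

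The groups were made by a gene read in the same libraries, so the values that follow describe them and test nothing. Differences are between the means of log2(TPM + 1), Krtap8-1-positive minus Krtap8-1-negative cells. A gene was called when this difference was at least 1 in size and had the same sign on every plate. Of 9756 genes tested (those present in 30% or more of either group's cells), 2.41% were called higher and 0.133% (13 genes) lower. The balance was uneven across the whole transcriptome: the median gene differed by 0.20, with plate values of 0.28, 0.12, 0.10, 0.25 and 0.21, and 77.4% of the tested genes lay above 0. The Krtap8-1-positive cells also held more genes per cell, with a median of 7800 and a minimum of 3959 against 7261 and 2333. Averaged within 4 bins of genes per cell, 1.52% of the genes were called higher and 0.318% lower. Median shares of TPM on ribosomal RNA (73.8% and 74.1%), mitochondrial genes (2.64% and 2.75%) and spike-ins (0.605% and 0.747%) lay close together. Against the Tchh-positive cells, used below, 0.968% of genes tested were called higher and 0.0208% lower, with a median difference of 0.27. Against the Tchh-negative cells 6.49% were called higher and 3.64% lower, with a median of 0.06.

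The label of cells moving towards a hair shaft fate was first checked against 4 other shaft markers, S100a3, Mt4, Tgm6 and Prdm1. At least 1 of them was seen in 97.96% of the Krtap8-1-positive cells, at least 3 in 83.7%, and all 4 in 41.5%, against 40.1% for 3 and 12.4% for all 4 in Krtap8-1-negative cells. The share with at least 3 was 63.5% in the Tchh-positive cells, 6.85% in the Tchh-negative cells and 7.27% in the Lgr5-positive cells. These markers were proposed together with the group from earlier results of these data, and they mark shaft cells broadly: the Tchh-positive cells without Krtap8-1 held most of them too.

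S100a3, a calcium-binding protein abundant in the hair cuticle (chr3:90560578-90602702, plus strand), was called higher. It ran from 0 over a median of 72.4 to 702 TPM in the Krtap8-1-positive cells and from 0 over 8.11 to 578 TPM in the Krtap8-1-negative cells. The ranges overlapped almost wholly, and the gene was seen in 91.8% (86.2 to 95.7) and 60.5% (52.8 to 67.7) of cells. The difference was 2.60, from 1.40 to 3.96 between plates. It was 1.22 against the Tchh-positive cells, where it was not called, and 4.57 against the Tchh-negative cells.

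Mt4 (chr8:94137197-94139031, plus strand) had another pattern. It was absent from the median cell of either group and reached 892 and 298.98 TPM at most, in 49.7% (41.3 to 58.02) of Krtap8-1-positive and 17.5% (12.2 to 23.9) of Krtap8-1-negative cells. Its difference of 1.88 was called and was 1.76 against Tchh-positive cells, where it was not called, and 2.05 against Tchh-negative cells. Plates varied widely: Mt4 was seen in 28%, 34.6%, 35.5%, 50% and 84.6% of the Krtap8-1-positive cells in the order P1-3 to P2-1, and in 17.6%, 18.9%, 6.67%, 10.3% and 32.4% of the Krtap8-1-negative cells. On each plate the Krtap8-1-positive share was the higher one.

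Tgm6, a transglutaminase (chr2:130112416-130154232, plus strand), was at a median of 25.6 TPM and a maximum of 277.5 in the Krtap8-1-positive cells, against 0 and 281.1. It was called, with a difference of 1.81 (0.78 to 2.35 between plates), which was 0.37 against Tchh-positive and 3.86 against Tchh-negative cells. Prdm1, the transcriptional repressor Blimp1 (chr10:44437177-44528501, minus strand), was at a median of 60.9 and a maximum of 466 TPM, against 7.16 and 253.8. Its difference of 2.47 (1.00 to 3.45 between plates) was called, and was 0.78 against Tchh-positive and 4.87 against Tchh-negative cells. For both genes the means of the Krtap8-1-positive and the Tchh-positive cells lay near each other, at 46.2 and 51.2 TPM for Tgm6 and 73.3 and 57.3 TPM for Prdm1, and far above the 1.5 and 5.81 TPM of the Tchh-negative cells.

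**Figure D2:**
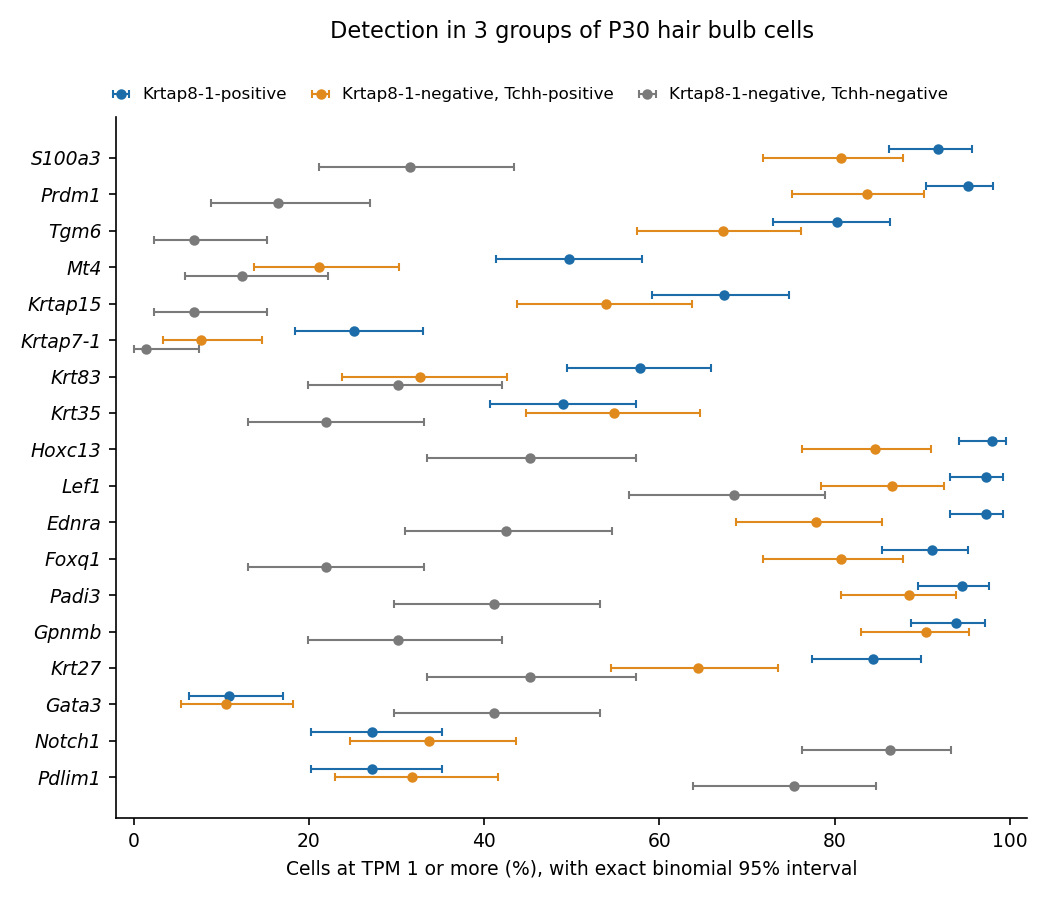
Share of cells (percent) with a gene at 1 TPM or more among the Krtap8-1-positive, the Tchh-positive Krtap8-1-negative and the 73 Tchh-negative Krtap8-1-negative cells; bars are exact binomial 95% intervals, which cover the counting of cells only. Mt4, Krtap7-1 and Krt83 are seen most often in the Krtap8-1-positive cells, Padi3 and Gpnmb about as often in the Tchh-positive cells, and Notch1 and Gata3 most often in the Tchh-negative cells.

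The other keratin-associated protein genes were mostly not seen. Of 57 such genes with values, 36 were seen in no cell of either group, and 14 besides Krtap8-1 in any Krtap8-1-positive cell. Krtap15 (chr16:88820215-88829844, plus strand) was the only one of the others that reached 30% of either group's cells and so could be called. It was called higher, seen in 67.3% against 34.5% of cells, at means of 29.4 and 15.04 TPM. The difference was 1.69 (0.75 to 2.37 between plates). Against Tchh-positive cells the Krtap15 difference was 0.75, and against Tchh-negative cells 3.04. Krtap7-1, the neighbour 20.3 kb from Krtap8-1, was seen in 25.2% (37 cells) against 5.08% (9 cells), with a difference of 0.90. Krtap14, which overlaps Krtap15 on the opposite strand, was seen in 21.1% against 3.39%, with a difference of 0.57. Neither reached 30% of either group's cells, so neither could be called. At least 1 of these 3 genes was seen in 80.3% of the Krtap8-1-positive, 58.7% of the Tchh-positive and 8.22% of the Tchh-negative cells. Strand-specific counting is not stated, so reads from the stretch that Krtap14 and Krtap15 share cannot be told apart, and near-identical members of the family may share reads.

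Hair keratins were at low levels. Krt35, an early type I hair keratin of the cortex and cuticle, was seen in 48.98% against 41.2% of cells, at means of 33.4 and 16.5 TPM, and its difference of 0.32 ran from -0.58 to 0.82 between plates. Of the 9 type I hair keratins only Krt35 passed the filter of 30% of cells, and it was not called. The median difference of all 9 was -0.04. On the type II side, Krt83 was seen in 57.8% against 31.6% (difference 0.99), Krt86 in 35.4% against 12.4% (0.53) and Krt81 in 29.3% against 14.7% (0.41). None of these passed the threshold of 1, although Krt83 did against the Tchh-positive cells, at 1.05. Krt81, Krt83 and Krt86 are close copies whose reads the quantification could split. At least 1 of Krt35, Krt83, Krt86 and Krt81 was seen in 78.2% of the Krtap8-1-positive and 53.1% of the Krtap8-1-negative cells. The later cortex keratin Krt31 was seen in 11.6% and 10.7%.

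Of 10 other shaft genes, S100a3, Mt4 and Tgm6 included, 5 were called higher and none lower, with a median difference of 1.00. The other called genes were Padi3, which deiminates trichohyalin, at 2.38 (94.6% against 68.9% of cells), and Lypd3, a surface protein of differentiating epithelium, at 1.30. The desmosomal cadherin Dsg4 of the shaft was seen in 32.7% against 9.04% of cells, with a difference of 0.67 that was not called. Against Tchh-positive cells the median of the 10 genes was 0.38, and against Tchh-negative cells 1.65.

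Of 19 regulators of the shaft program, 8 were called higher and none lower, and their median difference was 0.85, beside 0.20 for the median tested gene. Against the Tchh-positive cells 3 were called, with a median of 0.58, and against the Tchh-negative cells 9, with a median of 0.995. Hoxc13 (chr15:102921103-102928814, plus strand), which drives hair keratin genes, was seen in 97.96% against 68.4% of cells. It lay between 0 and 159.03 TPM with a median of 47.3 in the Krtap8-1-positive cells, and between 0 and 126.97 TPM with a median of 19.3 in the others. Its difference of 2.08 (1.14 to 2.77 between plates) remained called against the Tchh-positive cells, at 1.05. Lef1, the transcription factor that carries WNT signals to hair genes, was at a median of 86.4 TPM against 34.6, with a difference of 1.64 (1.08 to 1.86), also called against the Tchh-positive cells (1.37). Beside Prdm1, the remaining called regulators were Msx2 (1.202), Grhl1 (1.201), Dlx3 (1.18), Msx1 (1.17) and Dlx4 (1.04). Msx1, Msx2, Dlx3 and Lef1 were all 4 present in 93.2% of the Krtap8-1-positive and 67.8% of the Krtap8-1-negative cells. Foxn1, the gene of the nude mouse, was seen in 14.3% against 17.5%, and Bcl11b in 14.97% against 18.1%.

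Medulla genes lay near their level in the Tchh-positive cells. Among 6 medulla genes, 3 were called higher with a median difference of 1.09. Leaving out Tchh, which defines the split, the median was 0.28 against Tchh-positive and 4.52 against Tchh-negative cells. Foxq1, the transcription factor mutated in satin mice, whose medulla is malformed, was at means of 75.0, 77.7 and 5.59 TPM in the Krtap8-1-positive, Tchh-positive and Tchh-negative cells. Krt75, a keratin of companion layer and medulla, was seen in 90.5% against 62.7% of all Krtap8-1-negative cells, with a difference of 1.90 (0.15 to 3.02 between plates). That difference turned to -0.16 against the Tchh-positive cells. Foxq1 and Padi3 occurred together in 90.5% of the Krtap8-1-positive, 80.8% of the Tchh-positive and 16.4% of the Tchh-negative cells. Tchh itself, a protein of medulla and inner root sheath, was seen in 63.9% of the Krtap8-1-positive cells.

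Inner root sheath genes gave a mixed picture, with a median difference of 0.13 over 14 genes. Of the 9 tested, 2 were called higher and none lower. Without plate P2-1 the median of the 14 was 0.29. The called genes were Tgm3, a transglutaminase used in shaft and sheath alike, at 1.46, and the keratin Krt27 at 1.18. Krt28 (0.98) and Krt26 (0.92) were not called. Gata3, the transcription factor that specifies the sheath, was seen in 10.9% against 23.2% of cells, and the sheath keratin Krt71 in 16.3% against 15.8%. Both fell short of 30% of either group's cells, so neither could be called. The mean of Krt71 was 1.17 TPM against 41.01, with medians of 0 in either group. Gata3 and Krt71 occurred together in 3.40% of the Krtap8-1-positive and 7.91% of the Krtap8-1-negative cells. The wider set of 6 sheath markers (Gata3, Krt71, Krt25, Krt27, Krt28 and Tchh) went the other way. At least 3 of them were seen in 78.9% of the Krtap8-1-positive and 58.8% of the Krtap8-1-negative cells. That share was 66.3% in the Tchh-positive cells and 47.9% in the Tchh-negative cells, which lack Tchh by definition. Over the 13 sheath genes without Tchh, none was called against the Tchh-positive cells (median 0.17), and 5 were called higher and 1 lower against the Tchh-negative cells (median 0.09). Of 6 companion layer genes, Krt75 and Krt17 (1.84) were called higher, and the other 4 (Krt6a, Krt6b, Krt16 and Krt79) were seen in 3.40%, 0.680%, 4.76% and 5.44% of the Krtap8-1-positive cells.

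The 15 genes with the largest differences covered several functions beyond the shaft itself. Gpnmb, a transmembrane glycoprotein known from pigment cells and macrophages, led the ranking: it was at a median of 594 TPM (0 to 2454) against 46.6 (0 to 2296), with a difference of 3.02. On the plates its medians were 546, 732, 587, 561 and 593 TPM in the Krtap8-1-positive cells and 42.98, 9.15, 0, 79.1 and 745 TPM in the Krtap8-1-negative cells, so that plate P2-1 reversed the order of the medians. The mean difference on that plate was still 0.79. Against Tchh-positive cells the Gpnmb difference was 0.31, and against Tchh-negative cells 6.89. Urah, an enzyme of urate breakdown (2.23), Trim29 (1.98) and the amino acid transporter Slc16a10 (1.92) were also among the 15.

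For 13 of these 15 genes plate P2-1 gave the smallest difference. The Krtap8-1-negative cells of that plate were Tchh-positive in 28 of 37 cases, against 22 of 34, 19 of 37, 11 of 30 and 24 of 39 on the other plates; the part of this makeup in the plate differences was not tested. All 15 genes were also called against the Tchh-negative cells, but only Urah (1.22), Hoxc13 (1.05), Ednra (1.39), Trim29 (1.04) and Slc16a10 (1.15) against the Tchh-positive cells.

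**Figure D3:**
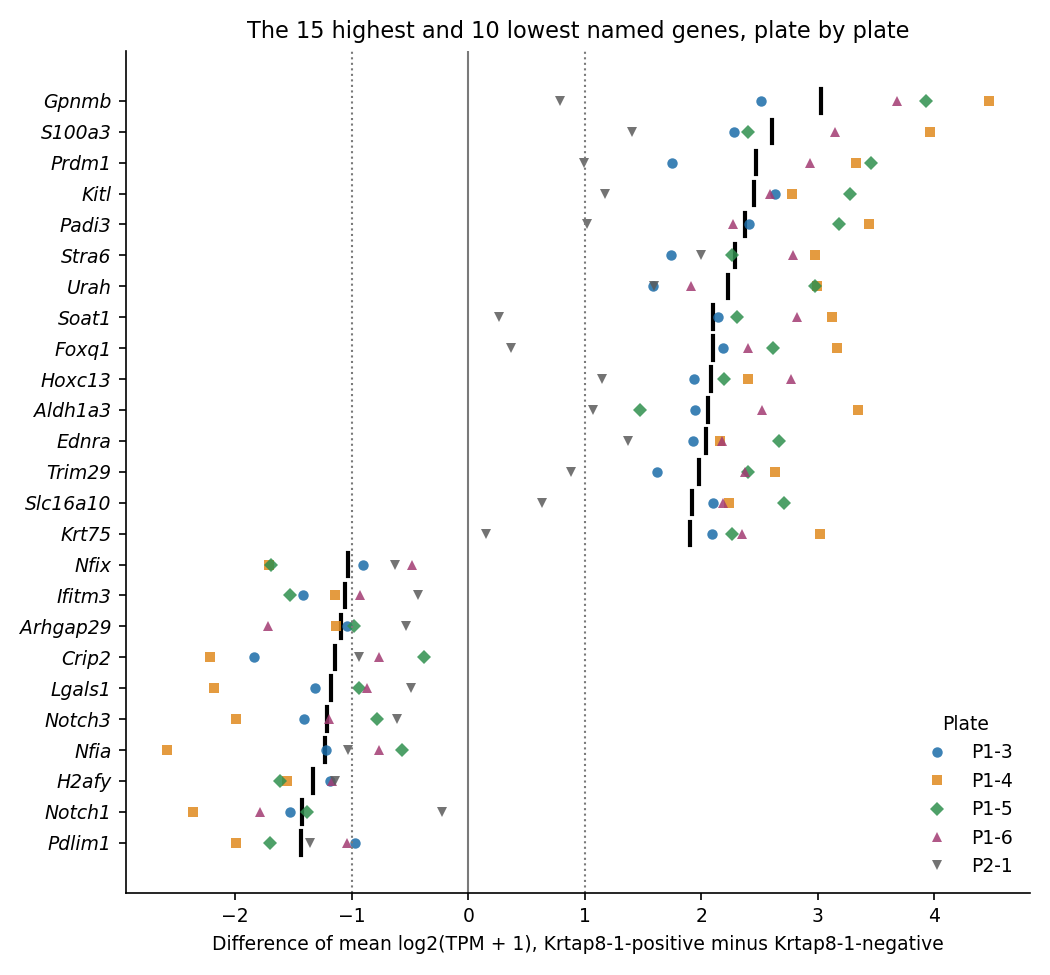
Difference in mean log2(TPM + 1), Krtap8-1-positive minus Krtap8-1-negative cells, for the 15 genes highest and the 10 genes lowest by the rule; symbols are the 5 plates, bars the value over all plates and dotted lines the threshold of 1 in each direction. Plate P2-1 lies lowest for 13 of the 15 higher genes. The same sign on every plate was a condition of the rule.

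Signals to pigment cells and their receptors included 2 of the 15. Kitl, the stem cell factor that binds Kit on melanocytes, was at a median of 298.5 TPM (0 to 848) against 36.1 (0 to 1161), with a difference of 2.45 (1.17 to 3.28 between plates). It was 0.98 against Tchh-positive cells, not called, and 4.55 against Tchh-negative cells. Ednra, the endothelin receptor type A, was at a median of 32.4 TPM (0 to 147.9) against 6.42 (0 to 300.1), seen in 97.3% against 63.3% of cells. Its difference of 2.04 (1.37 to 2.67) was 1.39 against Tchh-positive cells, where it was called. In the set of 9 such genes, drawn up after the values were seen, the 2 were the called ones and the median difference was 0.00.

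Retinoid genes, also listed after the values were seen, included Stra6, the receptor for retinol-binding protein, at a median of 197.5 against 89.3 TPM (difference 2.29), and Aldh1a3, which makes retinoic acid, at 97.9 against 14.3 TPM (2.06). They were the 2 called genes of 17, whose median difference was 0.36. Of 16 genes of cholesterol synthesis, uptake and esterification, a list likewise drawn up afterwards, 6 were called higher, with a median of 0.89 over the list. All 16 lay above 0, as did 77.4% of all tested genes. Soat1, which esterifies cholesterol, had the largest difference at 2.10 (0.27 to 3.12 between plates), and Hmgcs1 (1.40), an enzyme of the mevalonate pathway, Fdps (1.21), Cyp51 (1.17) and Fdft1 (1.11) were also called. None of the 16 was called against the Tchh-positive cells, where the median was 0.48 and Soat1 was at -0.10. Plate medians of the list were 1.00, 1.34, 1.16, 1.19 and, on plate P2-1, 0.19, where the median tested gene was at 0.21.

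WNT response genes were higher in part: 6 of 15 were called higher and none lower, with a median of 0.65. These were Bambi (1.69), Lef1, the secreted WNT inhibitor Notum (1.15), Axin2 (1.08), Rnf43 (1.05) and Apcdd1 (1.04). Against Tchh-positive cells the median was 0.52 with 2 genes called, and against Tchh-negative cells 0.56 with 6. Over all tested genes 2.41% were called higher against all Krtap8-1-negative cells, 0.968% against Tchh-positive and 6.49% against Tchh-negative cells. The medians over all tested genes were 0.20, 0.27 and 0.06. Of 18 WNT ligands and receptors, the ligands Wnt5a (1.197), Wnt3 (1.18) and Wnt4 (1.05) were called higher, with a median of 0.23 over the list. In the BMP pathway, Bambi, a decoy receptor also counted here, and the target Id1 (1.06) were called among 8 response genes (median 0.51), and Bmp7 (1.14) among 10 ligands and receptors (median 0.14). Gli3 (1.47) was the called gene among 9 of the hedgehog pathway, and Fgfr2 (1.33) among 9 growth factor receptors. These 5 lists (WNT ligands and receptors, BMP response, BMP ligands and receptors, hedgehog, growth factor receptors) were also split. Against Tchh-positive cells 2, 0, 1, 1 and 0 were called higher and none lower, with medians of 0.21, 0.32, 0.09, 0.53 and 0.33. Against Tchh-negative cells 2, 3, 1, 1 and 2 were called higher and 0, 0, 1, 0 and 2 lower. The medians were 0.03, 0.87, 0.06, -0.09 and 0.13.

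The Notch pathway contributed genes to either side. Notch1, a receptor of the pathway, was called lower: it was at a median of 0 TPM (0 to 203.7) against 3.71 (0 to 536), in 27.2% against 55.4% of cells. Its difference of -1.43 ran from -2.36 to -0.23 between plates and was -0.25 against Tchh-positive and -3.10 against Tchh-negative cells. Notch3 (-1.21) was called lower as well, whereas the ligand Jag2 was called higher (1.04). The median of the 15 Notch genes was -0.00.

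The 13 genes called lower were led by Pdlim1, an actin-associated PDZ and LIM protein, seen in 27.2% against 49.7% of cells (difference -1.43, from -1.995 to -0.97 between plates). H2afy, the histone variant macroH2A1 (-1.33), and the nuclear factor I genes Nfia (-1.23), Nfix (-1.03) and Nfib (-1.03) were among them. So were Lgals1 (-1.17), Crip2 (-1.14), Arhgap29 (-1.09) and Ifitm3 (-1.06). None of the 10 lowest was called lower against the Tchh-positive cells and all 10 were against the Tchh-negative cells; for Nfix the difference against Tchh-positive cells was 0.01. The count of 13 rested on single plates: it was 6 without plate P1-4 and 26 without plate P2-1.

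Genes of cell adhesion were also described by lists. Of 20 desmosome and envelope genes, 4 were called higher, among them the desmosomal cadherin Dsg3 (1.90), Perp (1.15) and the plakophilin Pkp3 (1.01), with a median of 0.53. Of 11 basal adhesion genes, 4 were called higher, the laminin chain Lama3 (1.34) and the integrins Itga3 (1.07), Itga6 (1.05) and Itgb4 (1.03), with a median of 0.57. Integrin α6, the product of Itga6, was itself a sort marker of all cells. Krt5, a basal keratin, was called higher at 1.41 and had means of 79.4, 27.04 and 74.8 TPM in the Krtap8-1-positive, Tchh-positive and Tchh-negative cells. In the S100 family 5 of 14 genes were called higher, S100a3, S100a14 (1.73), S100a6 (1.32), S100a1 (1.05) and S100a16 (1.01), with a median of 0.22. Against the Tchh-positive cells no gene of these 3 lists was called, and the medians were 0.17 (desmosome and envelope), 0.39 (basal adhesion) and 0.02 (S100 family). Against the Tchh-negative cells 10, 5 and 7 were called higher and 1 basal adhesion gene lower, with medians of 1.14, 0.82 and 1.06. Over all tested genes 6.49% were called higher and 3.64% lower there, with a median of 0.06. Against all Krtap8-1-negative cells 2.41% were called higher, with a median of 0.20.

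Cell cycle genes depended on which cells the comparison held. Of 20 S phase genes, 19 lay below 0 with a median of -0.29 and none was called. Against the Tchh-positive cells all 20 lay above 0, with a median of 0.40 and no call; there 88.2% of all tested genes lay above 0, with a median of 0.27. Against the Tchh-negative cells all 20 lay below 0, with a median of -1.29 and 18 called lower. For the 20 genes of G2 and mitosis the medians were -0.13, 0.42 and -0.87, and the plate values of the first ran from -1.24 to 0.68. Without plate P1-4 the first was 0.18. At least 1 of Mki67, Top2a and Cdk1 was seen in 76.9% of the Krtap8-1-positive, 59.6% of the Tchh-positive and 79.5% of the Tchh-negative cells, and all 3 in 33.3%, 21.2% and 58.9%. The cell cycle inhibitor Cdkn1a was called higher, at means of 95.1 against 58.9 TPM (difference 1.75). Among cells without any of Mki67, Top2a and Cdk1, 6.26% of the genes tested were called higher and 1.31% lower. Only 34 Krtap8-1-positive and 57 Krtap8-1-negative cells were left there, and 7 of 27 named genes stayed called. Of these 57 cells 26.3% were Tchh-negative, against 41.2% of the comparison cells before. The part of the smaller groups and of this shift in the values was not tested.

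**Figure D4:**
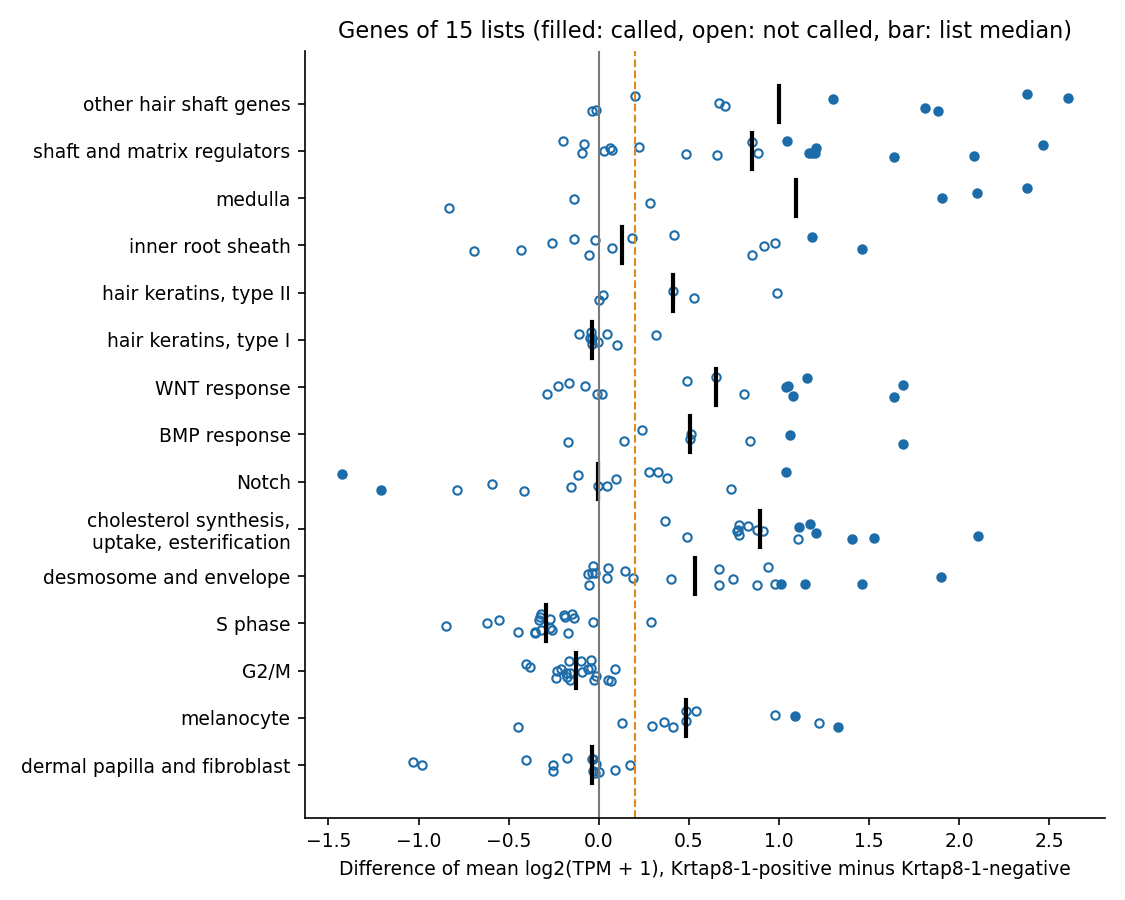
Differences of the genes of 15 lists, Krtap8-1-positive minus Krtap8-1-negative cells, in mean log2(TPM + 1); each point is 1 gene, filled where called and open where not, the bar is the median of the list and the dashed line the median of all tested genes, 0.20. The lists of shaft genes, regulators, medulla genes and cholesterol genes have medians from 0.85 to 1.09, and those of S phase and of G2 and mitosis lie below 0.

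Transcripts of dermal, immune and endothelial cells were present at low median levels, and those of melanocytes at a higher one. Of 12 melanocyte genes, Dct (1.33; 95.9% against 76.8% of cells) and Pmel (1.09) were called higher, and the median was 0.48, or 0.09 against Tchh-positive and 1.01 against Tchh-negative cells. Their summed level had a median of 63.2 TPM (0 to 15117) against 44.97 (0 to 20072), and at least 2 of Mlana, Dct, Tyr and Tyrp1 were seen in 83.7% against 60.5% of cells. The lineage gene Sox10 was seen in 24.5% against 18.6%, and Kit, the receptor of Kitl, in 33.3% against 39.5%. Without cells holding 2 or more of Mlana, Dct, Tyr and Tyrp1, 24 and 70 cells were left, and only 2 plates held 5 or more of each. There 6.57% of the genes tested were called higher and 1.36% lower, and the differences were 5.19 for Gpnmb, 3.49 for Kitl and 3.33 for Ednra. Of the 70 comparison cells left 49 were Tchh-negative, against 41.2% of the comparison cells before, and the part of this shift in the values was not tested.

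Of 14 dermal genes 2 passed the filter of 30% of cells, and neither was called. The summed level of the 14 had a median of 6.69 TPM (0 to 1844) against 27.7 (0 to 3163). At least 1 of Col1a1, Col3a1, Pdgfra, Corin and Rspo3 was seen in 29.3% against 31.1% of cells. At least 2 of these 5 were seen in 6.12% against 14.1%, and no cell of either group held 3. The share with at least 2 was 8.65% in the Tchh-positive and 21.9% in the Tchh-negative cells. Against the Tchh-negative cells 4 of the 14 genes passed the filter and 3 were called lower, beside 3.64% of all tested genes. There 13 of the 14 lay below 0, with a median of -0.17. Against the Tchh-positive cells 1 passed and none was called. At least 1 immune marker was seen in 5.44% of the Krtap8-1-positive against 9.60% of the Krtap8-1-negative cells, and at least 1 endothelial marker in 2.72% against 2.82%.

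Set against the Tchh-positive cells alone, an alternative added after the data were seen, 93 genes were called higher (0.968% of 9604) and 2 lower (0.0208%); 48 of the 93 were also called higher against all Krtap8-1-negative cells. The median gene differed by 0.27 there. Krt5 (1.95), Wnt5a (1.40), Ednra, Lef1, Apcdd1 (1.37), Bmp7 (1.33), Lfng (1.28), Mt2 (1.26), Epha1 (1.23), Wipi1 (1.21) and Msx1 (1.19) were among those called higher, and Tchhl1, a relative of trichohyalin, was lower (-1.35). Because the Tchh-positive cells were picked by Tchh in the same libraries, the lower Tchhl1 in the Krtap8-1-positive cells is a description. Against the Tchh-negative cells 6.49% of 10278 genes were called higher and 3.64% lower, with a median difference of 0.06. Against the Lgr5-positive cells without Krtap8-1 the counts were 1450 higher (14.1% of 10316) and 725 lower (7.03%), with a median of 0.29. All of the 15 highest genes were among the higher ones in that contrast.

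S100a3 was seen in 14.5% of the 55 Lgr5-positive and 31.5% of the Tchh-negative cells, beside 91.8% of the Krtap8-1-positive cells, with medians of 0, 0 and 72.4 TPM. Gpnmb was seen in 16.4%, 30.1% and 93.9%, with medians of 0, 0 and 594 TPM. Hoxc13 was seen in 70.9%, 45.2% and 97.96%, with medians of 7.35, 0 and 47.3 TPM. Lef1 had means of 13.95 TPM in the Lgr5-positive, 57.5 in the Tchh-negative, 60.9 in the Tchh-positive and 96.6 in the Krtap8-1-positive cells. Gata3 ran the other way, with means of 30.4, 11.99, 3.52 and 1.16 TPM.

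Within the Krtap8-1-positive cells, the genes most like Krtap8-1 were found by Pearson's correlation of log2(TPM + 1) over 8641 genes. The points share libraries and plates, so the coefficients are descriptions. The highest were Wipi1, an autophagy protein (r = 0.48, Spearman's rho 0.51; 0.31 to 0.62 within plates), Ptp4a1 (0.47), Fstl1 (0.45), the Eph receptor Epha1 (0.45), Ptk7 (0.44), Ednra (0.44), Nim1k (0.44) and the WNT receptor Fzd1 (0.43). Tchh had the lowest coefficient (r = -0.39, rho -0.38; -0.54 to -0.23 within plates), next to Zfp462 (-0.39) and Fabp4 (-0.35). On each plate, the cells rich in Krtap8-1 tended to hold less Tchh. The markers of the group had lower coefficients than these 8: Mt4 was at 0.34, Prdm1 at 0.33, S100a3 at 0.30 and Tgm6 at 0.20. Among other shaft genes Hoxc13 was at 0.33, Krtap15 at 0.16 and Krt35 at -0.16. Among inner root sheath genes, Cux1 was at 0.40 (0.17 to 0.55 within plates), Krt28 at 0.25 (-0.07 to 0.47) and Krt27 at 0.15 (-0.06 to 0.64). The sheath keratin Krt25 was at 0.03 (-0.21 to 0.33), and Tchhl1, the relative of trichohyalin, at -0.30 (-0.45 to -0.15). The number of genes per cell was at -0.04 and the share of ribosomal RNA at -0.21.

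**Figure D5:**
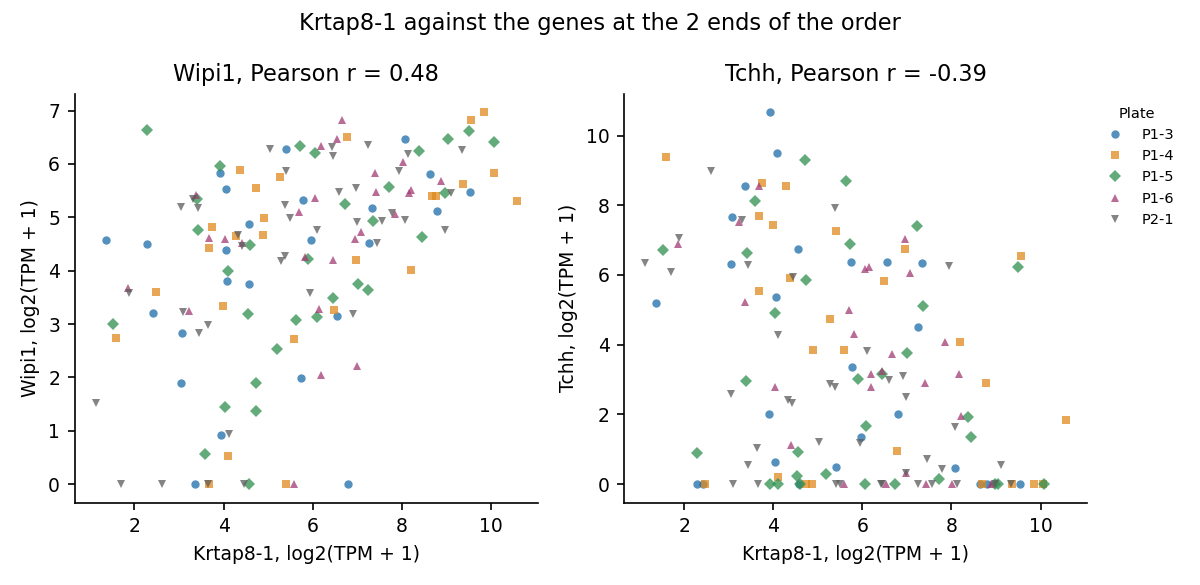
Krtap8-1 against Wipi1 and against Tchh in the Krtap8-1-positive cells, both axes in log2(TPM + 1), with 1 point per cell coloured by plate. Wipi1 rises along Krtap8-1 (r = 0.48) and Tchh declines (r = -0.39), with wide scatter and cells at 0 in each panel.

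Krtap8-1 was listed at 0 in every cell of the early anagen matrix (P25 to P27; 55, 76 and 68 cells on 3 plates), which allows a share of up to 1.51% (3 cells of the total; the exact interval ends at 1.84%). That table was normalized separately, and the values stand side by side only. S100a3 was seen in 7.54% of these earlier cells at a mean of 2.16 TPM, beside 91.8% and 123.9 TPM in the Krtap8-1-positive cells of P30.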

How the data were processed

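The values are the authors' deposited TPM, 1 column per cell, with 46609 rows in each table. The submitters' processing notes name Bowtie2 2.2.9, RSEM 1.2.30 and the build mm10. Read depth is not recorded in TPM and is unknown. Ribosomal RNA rows took a median of 74.1% of TPM in the Krtap8-1-negative cells, so that a TPM of 1 is a larger share of their mRNA. All columns matched a sample (0 did not) and no 2 cells held identical values.

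A gene was seen in a cell at 1 TPM or more. Differences used log2(TPM + 1), a scale that understates the change of low genes. Genes tested were present in 30% or more of either group's cells; Krtap8-1, Lgr5, Tchh where it made the groups, spike-ins, ribosomal RNA and mitochondrial genes were left out. A call needed a difference of at least 1 and 1 sign in every plate with at least 5 cells of each group. Genes of a list that were not tested could not be called. Shares carry exact Clopper-Pearson intervals at 95%, which cover the counting of cells only. No molecular identifiers were used, no doublet caller was run and plates cannot be counted as replicate animals.

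The text names the 15 highest and 10 lowest called genes without predicted models, pseudogenes and sort genes, up to 6 genes of each list by size, the 5 markers, and the 8 genes most correlated with Krtap8-1. Genes outside the rule that are named (Dsg4, Foxn1, Bcl11b, Krt71, Nfib, Sox10, Kit, Tchhl1, Zfp462, Fabp4 and those called against Tchh-positive cells) were chosen after their values were seen. Most called genes are not named. The members and 30 of the 33 lists were chosen with earlier results of these data known, and 3 lists were drawn up after the values were seen. Positions come from GENCODE M21 (GRCm38, the build of mm10) and promoters from RefSeq (GRCm38.p6). The scripts were tested on the same hair bulb cells, dealt out at random into groups of the real sizes, with known fold changes planted in some genes. Python 3.11.15, numpy 2.4.6, pandas 2.3.3 and scipy 1.17.1 were used.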

Additional observations from a re-analysis of the deposited data

Results flagged for a closer look

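Mt4 was present outside the compared cells: it was seen in 10.1% (20 cells; exact 95% interval 6.25 to 15.1) of the matrix cells of P25 to P27, in none of which Krtap8-1 was seen. In those 20 cells its median was 353.7 TPM and its highest value 7951 TPM, against at most 892 TPM in the Krtap8-1-positive cells of the separately normalized P30 table. The share was 7.27%, 3.95% and 19.1% on the 3 plates of that group. Of 39 bulge cells from the earlier age P21, 0 held Mt4, which allows a share of up to 7.69% (3 cells of the total; the exact interval ends at 9.03%). Krt1, a keratin of differentiating epidermis, was seen in 12 of the 20 cells with Mt4 and in 10 (5.59%) of the cells without. In the Krtap8-1-positive cells of P30 Krt1 was seen in 0.680%. Krt1 is only 1 of 4 epidermal markers, Krt1, Krt10, Lor and Krtdap. At P30 at least 1 of the 4 was seen in 51.7% of the Krtap8-1-positive and 36.7% of the Krtap8-1-negative cells. At least 2 were seen in 12.9% and 9.04%.

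Prdm1 was seen in 30.2% (60 cells; 23.9 to 37.04) of the same earlier matrix cells, at a median of 24.3 TPM where seen, and in 1 of the 39 bulge cells of P21. It was seen in 2 of the 20 cells with Mt4 and in 58 (32.4%) of the cells without. Tgm6 was seen in none of these earlier matrix cells.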

How the results depend on the processing

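No paired analysis was possible because the result comes from no test and the replicate numbers follow the order of accessions; weighting the 5 plates equally gave 2.36% of genes tested higher and 0.144% lower. Of 13 alternatives chosen earlier and the plates left out in turn, none reversed a named gene. Most of these genes were picked for the same sign on every plate, so leaving out a plate could hardly reverse them. A further 2 alternatives, chosen after seeing the data, narrowed the comparison cells. Counts are percentages of genes tested, 2.41% higher and 0.133% lower over all cells; list medians there were 1.00 (shaft), 0.85 (regulators), 1.09 (medulla), 0.13 (inner root sheath), 0.65 (WNT response), -0.00 (Notch), -0.29 (S phase), -0.13 (G2 and mitosis), 0.48 (melanocyte) and 0.89 (cholesterol). TPM rescaled without ribosomal RNA, mitochondrial and spike-in genes gave 6.05% and 0.435%, shaft 1.496, regulators 1.25, inner root sheath 0.29 and WNT 0.99, and moved the median gene from 0.20 to 0.30. A pseudocount of 0.1 gave 11.1% and 0.605%, shaft 1.81, regulators 1.47, inner root sheath 0.35, WNT 1.26 and cholesterol 1.495; one of 10 gave 0.226% and 0%, shaft 0.36, regulators 0.31, inner root sheath 0.0022 and WNT 0.18, and 12 of 27 named genes stayed called. With no filter on low values the shares were 0.506% and 0.0344%, by the larger number of genes tested. Krtap8-1 at 10 TPM or more gave 0.214% lower; at 100 or more, 4.62% and 0.600%, shaft 1.47 and cholesterol 1.37. With no condition on Lgr5, 0.709% were lower (82.8% of calls were higher ones, against 94.8%) and inner root sheath was 0.41. Leaving out Tchh-positive comparison cells gave 6.499% and 3.64% (64.1% of calls higher), shaft 1.65, medulla (Tchh included) 3.84, Notch -0.27, S phase -1.29, melanocyte 1.01 and cholesterol 1.52. Cells without cycling genes gave 6.26% and 1.31% (82.6%), shaft 1.17, regulators 1.47, inner root sheath 0.36, WNT 0.95 and cholesterol 1.59, and 7 of 27 named genes stayed called. Without cells holding melanocyte genes the shares were 6.57% and 1.36% (82.9%), shaft 1.18, medulla 2.14, inner root sheath 0.36, WNT 0.36 and melanocyte -0.045. Bins of genes per cell gave 1.52% and 0.318% (82.7%) and S phase -0.74. Leaving out each plate gave 1.99% to 3.16% higher (lowest without P1-4, highest without P2-1), 0.0612% to 0.266% lower, shaft 0.91 to 1.08, regulators 0.71 to 0.97, medulla 0.94 to 1.35, inner root sheath 0.070 to 0.29, WNT 0.54 to 0.76, Notch -0.025 to -0.0040, S phase -0.42 to -0.20, G2 and mitosis -0.33 to 0.18, melanocyte 0.31 to 0.63 and cholesterol 0.81 to 1.17. Comparison cells with at least 3 of Msx1, Msx2, Dlx3 and Lef1 gave 0.715% (64 of 70 genes also called over all cells) and 0.0613%, shaft 0.75, regulators 0.37 and WNT 0.32, and 15 of 27 named genes stayed called. Tchh-positive comparison cells alone gave 0.968% and 0.0312% (Tchh included), shaft 0.38, regulators 0.58, medulla 0.059 and S phase 0.40, and reversed Soat1 (-0.10), Krt75 (-0.16) and Nfix (0.014), with 5 of 27 still called. The causes were not tested. Read depth is unknown, so counting error per gene is too.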

Other observations

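Further groups of genes outside the comparisons above are given beside the median tested gene, which was at 0.20. Ribosome biogenesis genes, 14 in number, had a median difference of 0.10 and no call, and Myc was seen in 30.6% of the Krtap8-1-positive against 43.5% of the Krtap8-1-negative cells. Among 18 genes of cysteine supply and disulfide formation the median was -0.02, and Slc3a2, a subunit of amino acid exchangers, was the called one (1.24). Beside Mt4, the metallothioneins Mt1 (243.2 against 234.3 TPM) and Mt2 (367.3 against 383.1 TPM) had near-equal mean TPM and were not called. On the log2 scale the median difference of the 4 metallothionein genes was 0.59. Against the Tchh-positive cells Mt1 and Mt2 were both called, at 1.03 and 1.26. Of 11 outer root sheath genes, Krt17, Krt5 and the chemokine Cxcl14 (1.07) were called higher with a list median of -0.10. Their summed level had a median of 378.2 TPM in the Krtap8-1-positive and 256.5 TPM in the Krtap8-1-negative cells. At least 2 of the sheath markers Sox9, Krt5, Krt14 and Krt15 were seen in 59.2% against 44.6% of cells, and at least 3 in 13.6% against 19.2%. The 5 type II hair keratins had a median of 0.41, the 10 cell cycle inhibitors 0.23 and the 6 genes of interfollicular epidermis 0.09. The immune and endothelial lists had medians of 0.02 and 0.00, and no gene of either passed the filter. Cdkn1a was the called gene among these lists.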
